A study of Mus musculus with 16 samples.

Results

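Toll-like receptors are the family of membrane receptors through which macrophages recognise molecules of microbes. The 10 genes described here were taken by name (Tlr1 to Tlr9 and Tlr13) from 18820 genes measured on 16 arrays. They were chosen with earlier results of these data known, so their counts beside the share of all genes are descriptive. All 10 had exactly 1 probe set naming that gene alone. The cells were RAW264.7, a transformed macrophage-like line from mouse. They spent 24 h in 1 of 4 conditions, each with 4 arrays: lipopolysaccharide with docosahexaenoyl serotonin (LPS+DHA5HT), lipopolysaccharide (LPS) at 1 µg/ml, docosahexaenoyl serotonin (DHA5HT) at 1 µM, and vehicle control. LPS is a component of the outer membrane of Gram-negative bacteria, and DHA5HT joins docosahexaenoic acid, an omega-3 fatty acid, to serotonin. The combined group received both agents at these doses. The controls carried 0.1% ethanol by volume. The treatment protocol gives vehicle to the LPS wells too, but ethanol appears in the sample labels of the controls alone. All groups share 1 cell line, so they speak for that line and not for macrophages of a mouse.

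Each receptor binds its ligand with a horseshoe of leucine-rich repeats and signals through a cytoplasmic TIR domain. TLR1, TLR2, TLR4, TLR5 and TLR6 sit at the cell surface and meet components of the bacterial envelope and flagellum. TLR3, TLR7, TLR8, TLR9 and TLR13 sit in endosomes, where they meet nucleic acids. All of them but TLR3 signal through the adaptor MyD88, TLR3 signals through TRIF, and TLR4, the receptor for LPS itself, uses both. In macrophages these receptors start the production of cytokines and interferons.

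Values are log2 intensities from RMA, a method that corrects background, normalizes between arrays and gives 1 value per probe set. A difference of 1 is a 2-fold change, ± stands for the SD over 4 arrays, and arrays are numbered 1 to 4 within each group. A gene passed where limma gave a two-sided Benjamini-Hochberg adjusted p under 0.05 over all 18820 genes. Counts at an unadjusted p under 0.05 are given without the share of all genes at that p, so they have no background to be read against. For LPS+DHA5HT array 1 the title names both agents and the treatment label names DHA5HT alone, and the title was followed. LPS+DHA5HT array 4 lay at −22.4 on the second principal component, with the other 15 arrays between −9.36 and 10.0. Where leaving out either array moved a result of the combined group by over 1.5 times or changed a call, the value without it, or the range over left-out arrays, is given. Nothing in the labels ties the 4 arrays of a group to separate cultures. The spread behind each p-value is that between these samples, which may be technical. In bulk RNA, fewer cells of a kind and less RNA per cell cannot be told apart. The 9 measured markers of macrophages had mean values from 8.10 (Mertk) to 12.55 (Cd68), and 17 markers of T cells, B cells and epithelial cells had a median of 3.51 and a 90th percentile of 4.14. The mean over the macrophage markers was 11.21 to 11.37 in LPS arrays and 10.46 to 10.63 in control arrays. The mean over 4 measured neutrophil markers was 3.94 to 4.06 in LPS arrays and 3.76 to 3.81 in control arrays, all below that 90th percentile. For T cell, B cell, epithelial, dendritic cell and fibroblast markers the ranges of LPS and control arrays overlapped. The part of the macrophage and neutrophil marker shifts in the results was not tested.

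Promoter sequences are shown for the receptors with the largest increases (Tlr1 and Tlr2) and the largest decreases (Tlr5 and Tlr13) under LPS, as the stretch from which transcripts that moved in opposite directions start. They run from 250 bases before to 50 bases after the annotated start, come from RefSeq (GRCm38.p6), and are printed 5′ to 3′ on the strand of the gene. Capitals mark matches, on either strand, to the NF-kB core (GGG and CC with 5 bases of any kind between them), the PU.1 core (GAGGAAGT), the AP-1 site (TGANTCA) or the interferon-stimulated response element (GAAA and GAAA with 2 bases of any kind between them).
Tlr1, chr5:64933509-64933808, minus strand: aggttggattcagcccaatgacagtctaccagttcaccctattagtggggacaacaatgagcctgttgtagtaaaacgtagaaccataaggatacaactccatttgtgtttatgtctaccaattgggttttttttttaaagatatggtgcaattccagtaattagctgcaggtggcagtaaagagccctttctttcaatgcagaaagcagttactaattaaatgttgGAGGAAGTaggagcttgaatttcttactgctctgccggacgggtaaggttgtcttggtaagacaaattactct
Tlr2, chr3:83841559-83841858, minus strand: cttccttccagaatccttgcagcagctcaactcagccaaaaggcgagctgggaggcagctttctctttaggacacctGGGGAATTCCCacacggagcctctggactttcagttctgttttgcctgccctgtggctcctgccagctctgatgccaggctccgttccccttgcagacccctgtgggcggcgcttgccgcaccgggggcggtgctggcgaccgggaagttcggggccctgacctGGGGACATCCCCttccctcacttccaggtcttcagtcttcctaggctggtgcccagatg
Tlr5, chr1:182954538-182954837, plus strand: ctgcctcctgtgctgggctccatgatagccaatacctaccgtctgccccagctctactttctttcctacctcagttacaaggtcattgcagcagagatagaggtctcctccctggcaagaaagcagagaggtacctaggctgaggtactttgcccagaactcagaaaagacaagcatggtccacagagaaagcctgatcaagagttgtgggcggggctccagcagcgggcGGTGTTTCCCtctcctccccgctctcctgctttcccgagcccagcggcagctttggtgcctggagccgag
Tlr13, chrX:106143025-106143324, plus strand: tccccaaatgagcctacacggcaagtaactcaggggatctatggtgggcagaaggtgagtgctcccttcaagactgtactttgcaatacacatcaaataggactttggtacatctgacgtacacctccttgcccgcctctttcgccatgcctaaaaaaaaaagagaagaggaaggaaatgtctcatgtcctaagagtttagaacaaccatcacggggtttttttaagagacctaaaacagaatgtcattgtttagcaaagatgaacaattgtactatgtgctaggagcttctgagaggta

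The Tlr2 stretch holds overlapping NF-kB core matches starting at −173 and −172, and again at −9, −8 and −7, counted from the annotated start. At least 1 such match was found in 50.8% of the 32851 RefSeq promoters of the same length, so this core is common, and 4 of the 10 receptor promoters in the table hold it. The Tlr5 stretch holds 1 match to it, at −20. The Tlr1 stretch holds the PU.1 core at −23, which 3.2% of all promoters hold. Tlr9 is the other receptor with the PU.1 core, and it also holds the AP-1 site, found in 7.81% of promoters. The second annotated start of Tlr1 and the stretch of Tlr13 hold none of these letters. The interferon response element, in 3.44% of promoters, was found at 1 of the 2 starts of Tlr6. A promoter was in the table for 8 of the 10 receptors, Tlr4 and Tlr7 being the others.

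LPS against control asks how the receptor transcripts differed after 24 h with LPS, the ligand of TLR4. Engagement of TLR4 was not measured. Transcripts of the lipopeptide receptors rose, those of the flagellin receptor and of 4 endosomal receptors fell, and that of the LPS receptor itself fell slightly. Tlr1 was 3.63-fold higher and Tlr2 1.97-fold higher, whereas Tlr5 was 6.22-fold lower and Tlr13 2.68-fold lower. Of the 10 receptors 3 rose and 6 fell (limma, adjusted p under 0.05), where 28.4% of all genes passed, 12.6% higher and 15.8% lower. In 9 of the 10 the 4 LPS arrays did not overlap the 4 control arrays, where 29.8% of all genes did not overlap. The median difference of the receptors was −0.42 against 0.00 over all genes, and the median size of the difference was 0.86 against 0.12. By mean intensity the receptors lay between percentile 56.3 (Tlr5) and 95.9 (Tlr2) of all genes. The all-gene values include dimmer genes, and no background of equally bright genes is given.

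**Figure D1:**
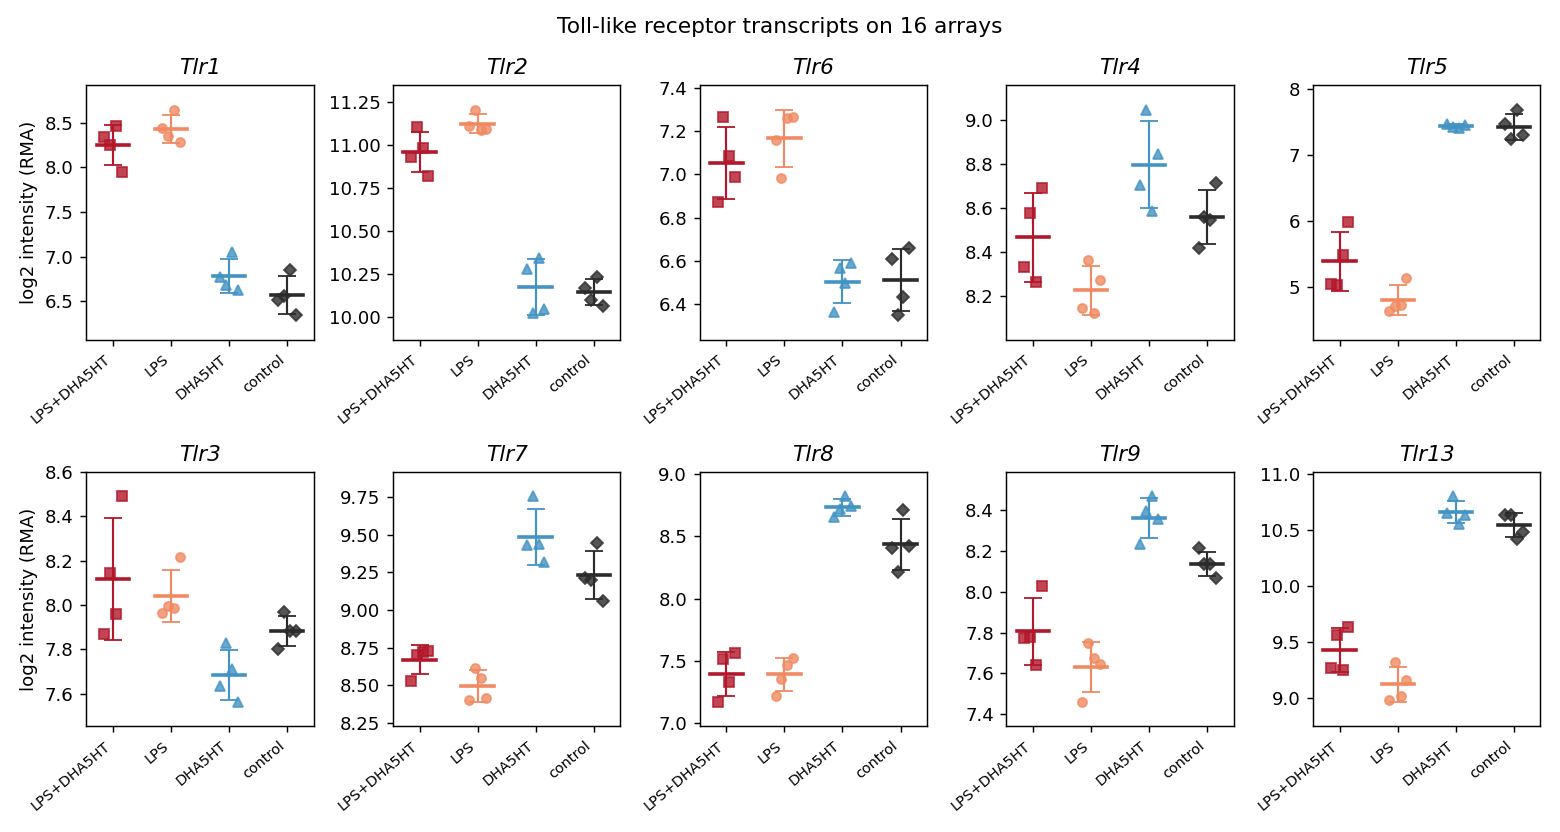
Log2 intensity of the 10 Toll-like receptor transcripts in each group, with 1 point per array, a thick line at the mean of 4 arrays and a bar of ± 1 SD; the axes have different ranges and do not start at 0. Tlr1, Tlr2 and Tlr6 are high in both LPS groups, and Tlr5, Tlr7, Tlr8, Tlr9 and Tlr13 are low in both.

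TLR1 and TLR6 pair with TLR2, and the pairs recognise triacylated and diacylated bacterial lipopeptides. Tlr1 (probe set 10530145) stood at 8.44, 8.35, 8.65 and 8.28 in LPS arrays 1 to 4, against 6.52, 6.56, 6.85 and 6.35 in control arrays. The lowest LPS array was above the highest control array by more than the range within either group. The difference was 1.86 (SE 0.12, limma adjusted p = 3.05e-09), ranked 140 among increases of all 18820 genes. In each group array 3 had the highest and array 4 the lowest Tlr1 value.

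Tlr2 (probe set 10498992), the shared partner of both pairs, stood at 11.11, 11.21, 11.09 and 11.09 in LPS arrays, against 10.17, 10.10, 10.23 and 10.07 in control arrays. Its groups were also clearly apart, by 0.98 (SE 0.08, limma adjusted p = 2.92e-08). Tlr6 (probe set 10530151) stood at 7.16, 6.98, 7.26 and 7.27 in LPS arrays, against 6.61, 6.35, 6.43 and 6.66 in control arrays. All LPS arrays lay above all control arrays, and the difference of 0.66 (SE 0.09, limma adjusted p = 2.48e-05) was 1.58-fold. Tlr1 and Tlr6 lie next to each other on chromosome 5, with 0 protein-coding genes between them, and are close relatives. Whether their probe sets share targets was not tested.

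TLR4 binds LPS together with MD-2. Tlr4 (probe set 10505517) stood at 8.14, 8.36, 8.12 and 8.27 in LPS arrays, against 8.42, 8.56, 8.54 and 8.72 in control arrays. The groups did not overlap, but the highest LPS array and the lowest control array were only narrowly apart. The difference of −0.33 (SE 0.11, 1.26-fold lower) had a limma adjusted p of 0.0253. This call was lost when arrays were centred on their medians (−0.29, adjusted p = 0.0596) and without LPS array 1 or 3 or control array 4 (−0.31 to −0.28, adjusted p 0.0680 to 0.0849).

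TLR5 recognises flagellin, the protein of bacterial flagella. Tlr5 (probe set 10608697) stood at 4.63, 4.71, 4.72 and 5.12 in LPS arrays, against 7.47, 7.25, 7.69 and 7.31 in control arrays. No other receptor had a larger change in either direction, and its decrease ranked 4 among those of all 18820 genes. The difference was −2.64 (SE 0.17, 95% confidence interval −2.99 to −2.28, limma adjusted p = 1.57e-09). In LPS arrays the probe set read below the median gene (5.24). All 4 arrays lay above the 90th percentile (4.14) of the T cell, B cell and epithelial markers. They lay within the range of the mean values of 5 fibroblast markers, 3.03 (Dcn) to 5.32 (Col1a1). Probe sets differ in brightness, so this does not set how much transcript was left.

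The endosomal receptors did not move as a block. TLR13 recognises bacterial ribosomal RNA in mice. Tlr13 (probe set 10601385) stood at 8.98, 9.32, 9.02 and 9.16 in LPS arrays, against 10.63, 10.63, 10.42 and 10.49 in control arrays, a fall of −1.42 (SE 0.10, limma adjusted p = 4.02e-09). The groups were separated by more than their ranges. Tlr8 (probe set 10607868), whose human counterpart recognises single-stranded RNA, stood at 7.22, 7.36, 7.47 and 7.52 in LPS arrays, against 8.41, 8.21, 8.71 and 8.42 in control arrays. It was 2.07-fold lower (−1.05, SE 0.10, limma adjusted p = 3.59e-07).

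Tlr7 (probe set 10607870), the receptor for single-stranded RNA, stood at 8.40, 8.61, 8.55 and 8.41 in LPS arrays, against 9.21, 9.20, 9.45 and 9.06 in control arrays. It fell by 0.73 (SE 0.09, limma adjusted p = 9.32e-06), again without overlap. Tlr7 and Tlr8 lie next to each other on chromosome X, with 0 protein-coding genes between them, and both fell. Tlr9 (probe set 10588479), the receptor for unmethylated CpG DNA, stood at 7.46, 7.75, 7.67 and 7.65 in LPS arrays, against 8.21, 8.14, 8.14 and 8.07 in control arrays. Its fall of 0.51 (SE 0.08, limma adjusted p = 0.000106) was 1.42-fold.

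Tlr3 (probe set 10578493), the receptor for double-stranded RNA, did not pass. It stood at 7.96, 8.00, 7.99 and 8.22 in LPS arrays, against 7.80, 7.97, 7.88 and 7.88 in control arrays, and the groups overlapped. The difference was 0.16 (SE 0.11, 95% confidence interval −0.07 to 0.38, limma adjusted p = 0.332). Among the receptors that passed, Tlr4 was the only one to lose its call under any alternative setting or left-out array.

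LPS+DHA5HT against DHA5HT measures the LPS response again, in cells that had DHA5HT in both groups. Its means come from 8 arrays outside the comparison above. Its spread comes from the same fit over 16 arrays, so the SE and p-values of the comparisons are not independent. The same receptors rose and fell, and Tlr3 rose with them. Of the 10 receptors 4 rose and 6 fell (limma, adjusted p under 0.05), where 28.1% of all genes passed, 12.4% higher and 15.7% lower. In 9 of them the groups did not overlap, against 28.5% of all genes; Tlr4 overlapped. The 9 receptors that passed in both comparisons had the same direction in both.

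Tlr1 stood at 8.34, 8.24, 8.47 and 7.94 in LPS+DHA5HT arrays, against 6.78, 6.68, 7.05 and 6.62 in DHA5HT arrays, a difference of 1.47 (SE 0.12, limma adjusted p = 7.52e-08). Tlr2 stood at 10.93, 11.10, 10.98 and 10.82 in LPS+DHA5HT arrays, against 10.28, 10.02, 10.34 and 10.05 in DHA5HT arrays, a difference of 0.79. Both lipopeptide receptor genes thus kept a gap wider than the spread of either group. Tlr6 stood between 6.87 and 7.27 in LPS+DHA5HT arrays, against 6.36 to 6.59 in DHA5HT arrays, a difference of 0.55 (limma adjusted p = 0.000171).

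Tlr5 stood at 5.05, 5.02, 5.48 and 5.98 in LPS+DHA5HT arrays, against 7.48, 7.42, 7.42 and 7.46 in DHA5HT arrays. The combined group spread widely, with array 4 highest, while the DHA5HT arrays were nearly equal. The difference was −2.06 (SE 0.17, 4.18-fold lower, limma adjusted p = 4.27e-08), and without LPS+DHA5HT array 4 it was −2.26. Tlr13 was lower by −1.23, Tlr8 by −1.34, Tlr7 by −0.81 and Tlr9 by −0.56, with limma adjusted p from 1.95e-08 to 3.99e-05.

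Tlr3 stood at 7.87, 8.14, 7.96 and 8.49 in LPS+DHA5HT arrays, against 7.64, 7.83, 7.71 and 7.56 in DHA5HT arrays. It was higher by 0.43 (SE 0.11, 1.35-fold, limma adjusted p = 0.00457), with no overlap. Without LPS+DHA5HT array 4, the highest, it was 0.31 (adjusted p = 0.0113). Tlr3 passed here and not in LPS against control, but the difference between these responses did not pass (0.28, 95% confidence interval −0.04 to 0.59, limma adjusted p = 0.716, and 0.15 without LPS+DHA5HT array 4). Tlr4 was lower by −0.33 (limma adjusted p = 0.0268). That call was lost after centring (adjusted p = 0.0571), in a fit on the compared arrays alone (adjusted p = 0.0670), and without LPS+DHA5HT array 1 or 3 or DHA5HT array 2 or 4 (−0.31 to −0.25, adjusted p 0.0648 to 0.104).

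**Figure D2:**
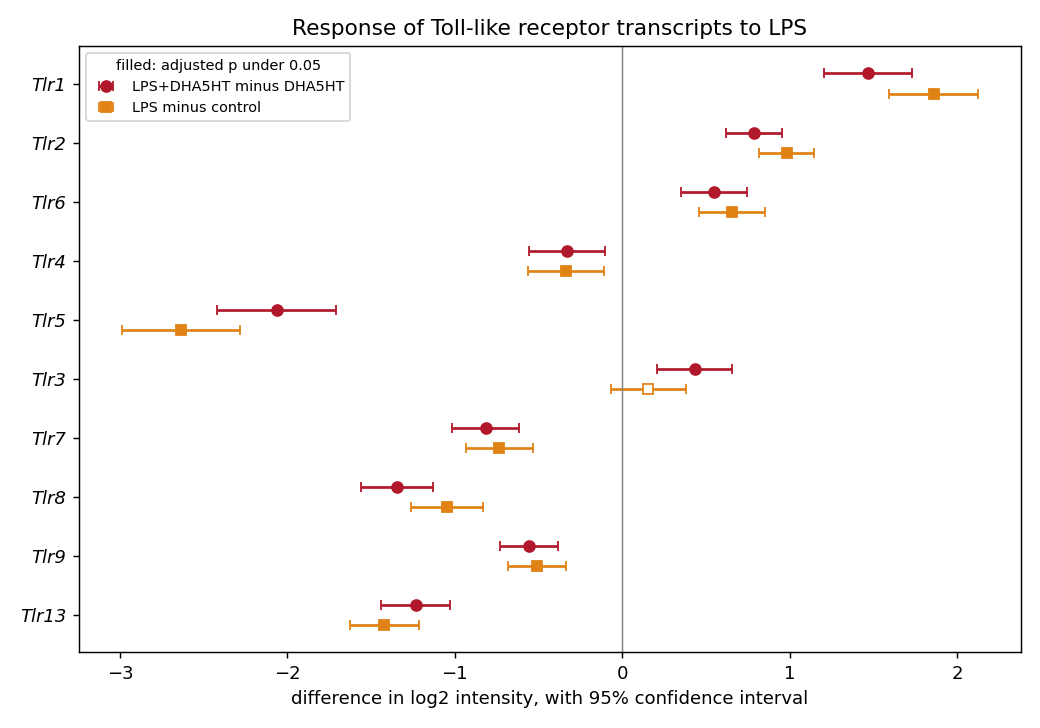
Difference in log2 intensity for each Toll-like receptor in LPS+DHA5HT minus DHA5HT (circles) and LPS minus control (squares), with 95% confidence intervals; filled symbols have a limma adjusted p under 0.05. The open symbol is Tlr3 in LPS minus control (0.16), and the widest departures from 0 are those of Tlr5 (−2.06 and −2.64).

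LPS+DHA5HT against LPS, which the design text of the series names, asks what DHA5HT did in cells that also received LPS. No receptor passed: the count was 0 of 10 in limma, where 1.79% of all genes passed (0.818% higher and 0.972% lower), and 3 had an unadjusted p under 0.05 (Tlr4, Tlr5 and Tlr13). With the replicate number as a block, 2 passed, Tlr5 and Tlr13, both higher with DHA5HT, where 3.44% of all genes passed in that fit. In 0 of 10 receptors the groups were free of overlap, against 7.89% of all genes. This comparison shares its LPS arrays with LPS against control, so the values are given side by side and no relation between them is drawn.

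Tlr5 stood at 5.05, 5.02, 5.48 and 5.98 in LPS+DHA5HT arrays, against 4.63, 4.71, 4.72 and 5.12 in LPS arrays. Only LPS array 4 reached into the range of the combined group. The difference was 0.59 (SE 0.17, 95% confidence interval 0.23 to 0.94, 1.5-fold, limma adjusted p = 0.0895), and the replicate block gave an adjusted p of 0.0486. Without LPS+DHA5HT array 4 it was 0.39 (adjusted p = 0.214), and without LPS+DHA5HT array 1 it was 0.70 (adjusted p = 0.0660). The increase ranked 25 among those of all genes in this comparison.

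Tlr13 stood at 9.26, 9.57, 9.25 and 9.63 in LPS+DHA5HT arrays, against 8.98, 9.32, 9.02 and 9.16 in LPS arrays. The ranges overlapped through LPS array 2. The difference was 0.31 (SE 0.10, 95% confidence interval 0.10 to 0.51, limma adjusted p = 0.138), and the replicate block gave an adjusted p of 0.0352.

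The other receptors had smaller differences, none of which passed. Tlr4 stood at 8.33, 8.58, 8.26 and 8.69 in LPS+DHA5HT arrays, against 8.14, 8.36, 8.12 and 8.27 in LPS arrays (0.24, 95% confidence interval 0.01 to 0.47, limma adjusted p = 0.327). Tlr7 differed by 0.18 and Tlr9 by 0.17, and Tlr9 by 0.10 without LPS+DHA5HT array 4. The Tlr3 difference of 0.08 had no settled sign: it was −0.05 without LPS+DHA5HT array 4 and 0.16 without LPS+DHA5HT array 1, and it was 0.05 to 0.13 without LPS+DHA5HT array 3 or LPS array 1 or 4. Tlr8 differed by 0.00, with a 95% confidence interval of −0.21 to 0.22. Its sign was not settled either, since leaving out each array in turn gave −0.06 to 0.08. The remaining differences were −0.18 for Tlr1 (−0.44 to 0.08), −0.16 for Tlr2 (−0.33 to 0.00) and −0.12 for Tlr6 (−0.31 to 0.08). Tlr1 was at −0.08 without LPS+DHA5HT array 4 and −0.11 without LPS array 3. Tlr6 was at −0.06 without LPS+DHA5HT array 1, −0.19 without LPS+DHA5HT array 2 and −0.18 without LPS array 2. In every same-numbered pair the LPS+DHA5HT array was the higher for Tlr4, Tlr5, Tlr7 and Tlr13, and the lower for Tlr1 and Tlr2. How many of all genes keep the same sign in every pair is not given, so this has no background to be read against. An adjusted p above the threshold does not show that the groups were alike.

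DHA5HT against control gives the effect without LPS. Again 0 of 10 receptors passed in limma, where 0.6% of all genes did (0.122% higher and 0.478% lower), with 4 at an unadjusted p under 0.05 (Tlr4, Tlr7, Tlr8 and Tlr9) and 0 passed with the replicate block, where 0.951% of all genes did. Tlr9 stood at 8.23, 8.40, 8.47 and 8.36 in DHA5HT arrays, against 8.21, 8.14, 8.14 and 8.07 in control arrays. It was the 1 receptor whose groups did not overlap, against 5.89% of all genes, and the difference was 0.23 (95% confidence interval 0.05 to 0.40, limma adjusted p = 0.342).

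Tlr8 stood at 8.66, 8.72, 8.82 and 8.74 in DHA5HT arrays, against 8.41, 8.21, 8.71 and 8.42 in control arrays. Control array 3 alone reached the DHA5HT range, and the difference was 0.30 (0.08 to 0.51, limma adjusted p = 0.311). Tlr7 stood at 9.43, 9.75, 9.44 and 9.32 in DHA5HT arrays, against 9.21, 9.20, 9.45 and 9.06 in control arrays, a difference of 0.26 (0.06 to 0.46, limma adjusted p = 0.356). Tlr4 stood at 8.71, 9.05, 8.58 and 8.85 in DHA5HT arrays, against 8.42, 8.56, 8.54 and 8.72 in control arrays, a difference of 0.24 (0.01 to 0.46, limma adjusted p = 0.483). For Tlr4 and Tlr7 the groups overlapped, though in each the DHA5HT mean was the higher. Without DHA5HT array 2 the differences were 0.15 for Tlr4 and 0.17 for Tlr7.

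The remaining receptors differed by 0.21 (Tlr1), 0.12 (Tlr13), 0.03 (Tlr2), 0.02 (Tlr5), −0.01 (Tlr6) and −0.20 (Tlr3). The Tlr1 value was 0.12 without DHA5HT array 3 and 0.14 without control array 4, and that of Tlr13 was 0.07 without DHA5HT array 2 and 0.08 without control array 3. Tlr5, which read higher with DHA5HT under LPS, thus had nearly equal means of 7.45 ± 0.03 in DHA5HT and 7.43 ± 0.20 in control arrays (SD, n = 4). Whether the DHA5HT effect itself differed with LPS was tested as the difference between the effects, and 0 of 10 receptors passed in limma, where 0.329% of all genes did (0.165% in each direction). An unadjusted p under 0.05 was found for Tlr5 (0.57, 95% confidence interval 0.07 to 1.07, limma adjusted p = 0.573, and 0.37 without LPS+DHA5HT array 4) and Tlr1 (−0.39, −0.77 to −0.02, limma adjusted p = 0.622). With the replicate block 1 receptor passed, Tlr1 (adjusted p = 0.0460), where 0.51% of all genes passed in that fit.

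**Figure D3:**
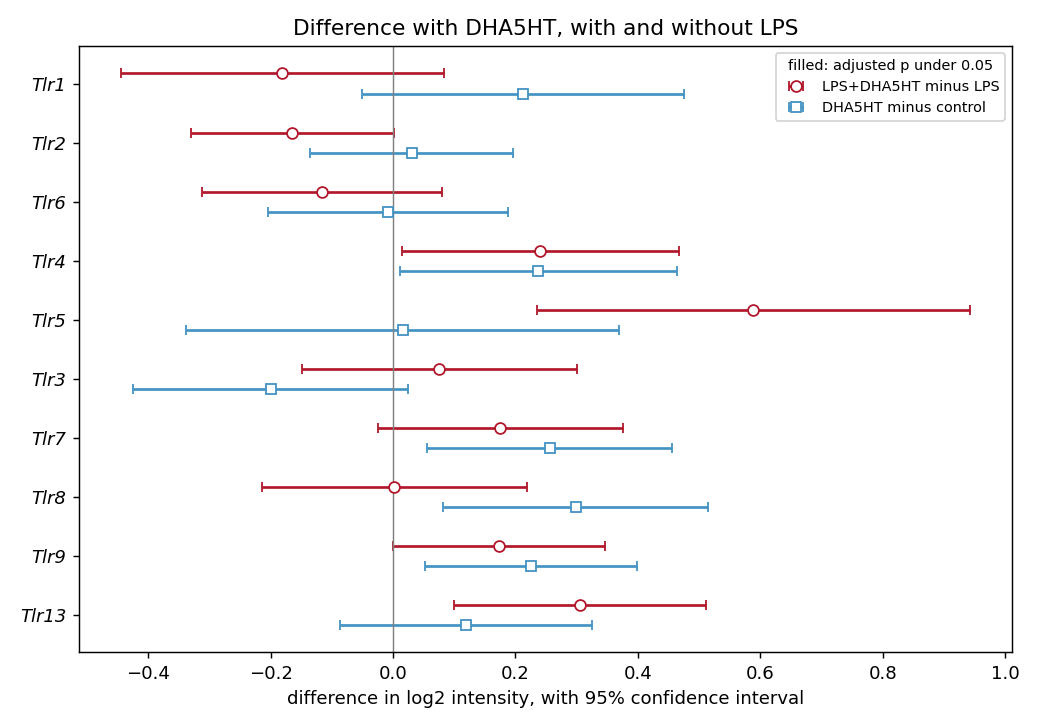
Difference in log2 intensity for each Toll-like receptor in LPS+DHA5HT minus LPS (circles) and DHA5HT minus control (squares), with 95% confidence intervals from the fit over 16 arrays. All symbols are open because no adjusted p was under 0.05, and the value farthest from 0 is that of Tlr5 under LPS (0.59).

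Across the 4 conditions the levels fell into an upper and a lower pair for 8 receptors. For Tlr1, Tlr2 and Tlr6 the order of the means set LPS highest and LPS+DHA5HT after it, with DHA5HT and control below. For Tlr5, Tlr7, Tlr8, Tlr9 and Tlr13 it set DHA5HT highest, then control, then LPS+DHA5HT, with LPS lowest. In all 8 the step between the pairs was free of overlap and passed (limma adjusted p from 5.85e-08 to 0.00482), and no step within a pair passed. The order within a pair is therefore unsettled: for Tlr8 the LPS+DHA5HT and LPS means were both 7.39. Tlr3 ran from LPS+DHA5HT through LPS and control to DHA5HT, and Tlr4 from DHA5HT through control and LPS+DHA5HT to LPS. In both, no step between neighbouring groups passed (limma adjusted p from 0.327 to 0.827).

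The 7 lists of proteins that work with the receptors were also chosen with earlier results of these data known. Of their 57 measured transcripts 20 rose and 13 fell in LPS against control, where 28.4% of all genes passed. The other 24 did not pass. Of 7 cell-surface co-receptors and accessory proteins 4 rose and 1 fell, with a median difference of 0.28 against 0.00 over all genes. Only 2 rose without LPS array 2, without control array 4, among genes above the median gene, or at an adjusted p under 0.01. Cd14, which hands LPS to TLR4, averaged 11.92 ± 0.03 in LPS and 11.43 ± 0.12 in control arrays (limma adjusted p = 3.22e-06). Ly96, the gene of MD-2, averaged 10.74 ± 0.12 in LPS and 10.28 ± 0.24 in control arrays (limma adjusted p = 0.0147), a call lost without LPS array 2 or control array 4 (0.41 and 0.38, adjusted p = 0.0522 and 0.0591). Both partners of TLR4 were thus higher in the arrays in which Tlr4 was lower. Cd180, a relative of TLR4 that lacks a TIR domain, fell by 0.36 (limma adjusted p = 0.00878). The scavenger receptor gene Cd36 (means of 3.27 in LPS and 2.70 in control arrays) and Tril (3.37 in LPS and 3.09 in control arrays) also count as risers, but all 4 means lie below the median of the T cell, B cell and epithelial markers.

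Of 12 measured genes of receptor chaperones, trafficking and processing 4 rose and 5 fell, with a median of −0.04, where 28.4% of all genes passed. Unc93b1, which carries the nucleic acid receptors to endosomes, rose by 0.33 (limma adjusted p = 0.000289), while Tlr7, Tlr8, Tlr9 and Tlr13 fell. The proteases that cleave these receptors moved apart: Lgmn, an asparagine endopeptidase, fell by 0.63 and Ctsl, cathepsin L, rose by 0.54. Cnpy4, a relative of the receptor chaperone CNPY3, fell by 0.43, and Lrrc59 rose by 0.32. Among 6 adaptors 2 rose and 0 fell, a share near that of all genes, with a median of 0.17; 1 fell without LPS array 3 or control array 3, after the filter or with array weights. Ticam2 (TRAM), which links TLR4 to TRIF, averaged 7.95 ± 0.21 in LPS and 6.60 ± 0.16 in control arrays (1.35, limma adjusted p = 2.67e-07), and Pik3ap1 rose by 0.44. Myd88 (0.08, adjusted p = 0.344), Ticam1 (TRIF, 0.16, adjusted p = 0.172) and Tirap (0.19, adjusted p = 0.0814) did not pass in limma. Tirap did pass with the replicate block (adjusted p = 0.0488), above the median gene (0.0384), after centring (0.0311) and without control array 1 (0.27, adjusted p = 0.00279).

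Of 13 measured proximal kinases and ubiquitin ligases 3 rose and 2 fell, with a median of 0.14, where 28.4% of all genes passed. The count that rose was 5 with the replicate block, after a repeated quantile normalization or without LPS array 1, and 6 after centring or above the median gene. The count that fell was 1 after centring, at 0.01, with the block on the compared arrays, and when any of LPS arrays 1 and 4 or control array 1 was left out. Those that rose were Peli1, a ubiquitin ligase (1.66), Irak2, a kinase of the MyD88 complex (1.11), and Ikbke, an IkB kinase relative (0.85), and Tab1 fell by 0.36. Of 11 measured negative regulators 4 rose and 4 fell, with a median of 0.06. Irak3, the inhibitory IRAK-M, averaged 11.86 ± 0.06 in LPS and 9.85 ± 0.07 in control arrays (2.01, limma adjusted p = 1.96e-12). Socs1 rose by 1.98, Tnfaip3 (A20) by 1.40 and Tnip1 by 1.06. Those that fell were Nrros (−0.87), Cyld (−0.50), Rnf216 (−0.32) and Inpp5d (−0.16), with limma adjusted p from 6.32e-07 to 0.0402. Sigirr stood at −0.31 without passing (limma adjusted p = 0.0805). Of 6 interferon regulatory factors 3 rose and 1 fell. Irf7, a transcription factor that TLR7 and TLR9 activate, rose by 2.02 (limma adjusted p = 5.57e-08) and Irf8 by 0.43. Irf1 rose by 0.24, a call lost on the mean of its probe sets (0.09, adjusted p = 0.459) and when any of LPS arrays 2 and 4 or control arrays 1, 2 and 4 was left out (0.20 to 0.25, adjusted p 0.0514 to 0.106). Irf4 passed as lower with means of 3.90 ± 0.20 in LPS and 4.34 ± 0.16 in control arrays. Its groups overlapped, its LPS mean lies below the 90th percentile of the T cell, B cell and epithelial markers, and it drops out when only genes above the median gene are tested. The remaining mouse receptors of the family, Tlr11 and Tlr12, stayed between 2.48 and 2.80 and between 3.41 and 4.07 on all arrays, and neither passed in any comparison.

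**Figure D4:**
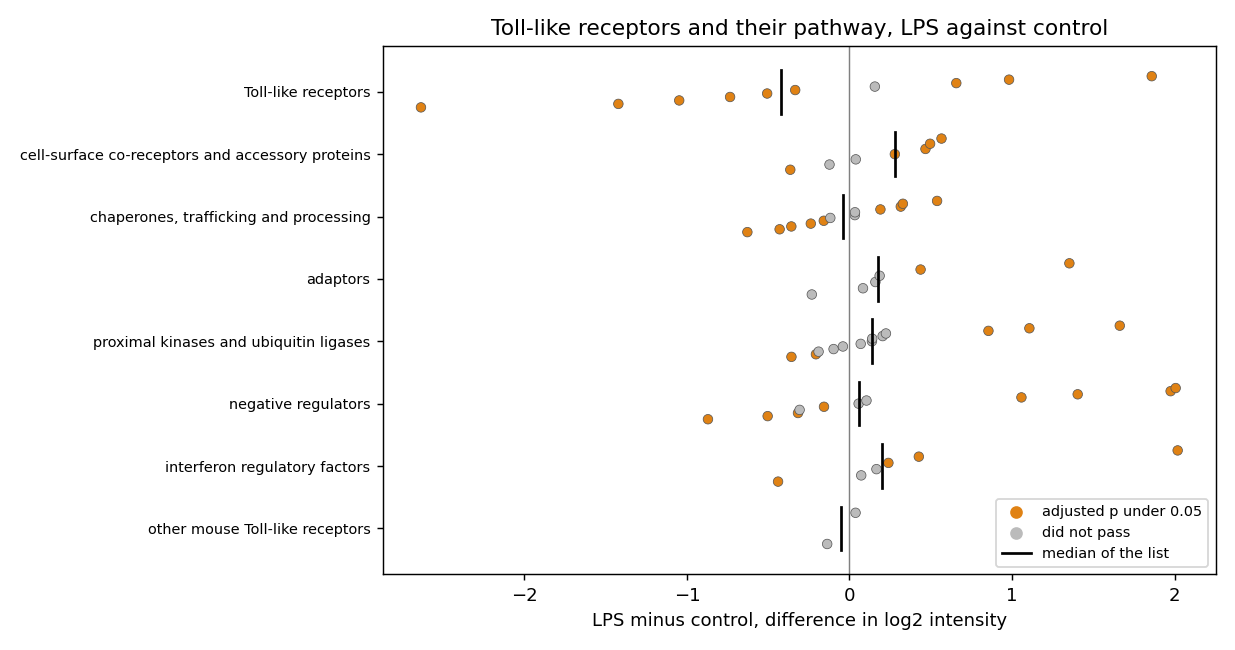
Difference in log2 intensity, LPS minus control, for each measured gene of the Toll-like receptor family and of 7 pathway lists; filled orange points have a limma adjusted p under 0.05 and the black line is the median of the list. The receptors spread from −2.64 to 1.86, and the median of the receptors (−0.42) lies left of 0.

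With DHA5HT under LPS, 0 of the 57 measured genes of these 7 lists passed in limma, where 1.79% of all genes did; 11 reached an unadjusted p under 0.05. The largest of these differences was that of Socs1 (−0.47, means of 5.98 ± 0.32 in LPS+DHA5HT and 6.45 ± 0.16 in LPS arrays, adjusted p = 0.100). Without LPS+DHA5HT array 1, whose labels differ, Socs1 passed (−0.61, adjusted p = 0.0238). Irak2 (−0.25) passed with an intensity trend (adjusted p = 0.0454) and above the median gene (adjusted p = 0.0411), where 2 genes of its list passed as lower. Without LPS, 2 of the 57 passed, both lower with DHA5HT, where 0.6% of all genes passed and 0.478% passed as lower. Irf7 stood at 6.43, 6.48, 6.74 and 7.16 in DHA5HT arrays, against 8.61, 8.95, 8.70 and 9.37 in control arrays (−2.21, 4.61-fold lower, limma adjusted p = 2.02e-06). Under LPS the Irf7 means were 10.75 ± 0.22 with DHA5HT and 10.93 ± 0.16 without it, and its difference between the effects passed (2.03, limma adjusted p = 0.000884). Tnfaip3 stood at 5.87, 5.82, 6.22 and 6.25 in DHA5HT arrays, against 6.61, 6.70, 6.71 and 6.75 in control arrays (−0.65, limma adjusted p = 0.00513). Ticam1 did not pass (−0.36, adjusted p = 0.0604) in this comparison, but did with the replicate block (adjusted p = 0.0336), and stood at 7.87 to 8.06 in DHA5HT arrays and 8.21 to 8.53 in control arrays.

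Likeness of pattern was measured for the 9 receptors that passed under LPS, as the root mean square difference of log2 values over 16 arrays after each gene's own mean was removed. The likest genes to Tlr5 were Rasgrp3, a Ras activator (0.28), Cd300lg (0.29) and the chemokine receptor gene Cxcr3 (0.32), with LPS differences of −2.30, −2.25 and −2.17. For Tlr1 they were Cpd, a carboxypeptidase gene (0.17), Bcl3, a nuclear IkB protein (0.18), and Icosl, a co-stimulatory ligand (0.19). For Tlr2 they were Crlf3 (0.09), Thg1l (0.10) and the proteasome gene Psma6 (0.10), and for Tlr6 Mospd2 (0.08), Acsl4 (0.10) and Nus1 (0.11). Tlr13 was likest to Arhgap18, Cadm1 and Myo1f (0.11 each), and Tlr8 to Trf, the transferrin gene (0.14), Slc9a9 (0.14) and Rcan2 (0.15). Tlr7 was likest to Timp2, a metalloprotease inhibitor (0.09), Tgfbr1 (0.12) and Anpep (0.12). Tlr9 was likest to Nfic (0.09), Cacna1a (0.09) and Cpped1 (0.09), and Tlr4 to Rragc (0.09), Snx30 (0.09) and Plekhm2 (0.10). The arrays share the LPS contrast, so genes that respond to LPS by a like amount come out as alike, and a smaller distance is easier to reach for receptors that moved little.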

How the data were processed

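RNA of RAW264.7 cells was measured on 16 whole-transcript arrays, from 100 ng of total RNA each, per the labels' protocols. The values, as deposited by the authors, are log2 intensities. RMA is the method named in the submitters' processing notes, and its version and any filter were not given in the sources used here. The table holds 35556 probe sets, of which 21218 name exactly 1 gene in the array's gene table, 1881 name several and 12457 are not listed. Of the probe sets of a gene the one with the highest mean over 16 arrays was kept, which left 18820 genes. Symbols were updated through the RefSeq gene table for the 18790 genes found there.

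Group means of the 4 conditions were fitted with lmFit and eBayes (limma 3.58.1, R 4.3.3), which left 12 residual degrees of freedom, with groups from the sample titles and 5 comparisons. The procedure was tested on simulated data. Same-numbered arrays deviated together from their group means in LPS+DHA5HT and LPS (r from 0.116 to 0.205) and in DHA5HT and control (0.131 to 0.183), all 4 pairs above 0.1 in each, so the block is given beside those results. In the other comparisons 1 pair lay lower (0.0995 and 0.0699). This pairing rests on the data, since the labels name no shared batch.

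Named were all 10 receptors, up to 4 genes with the smallest p per pathway list among those that passed under LPS or with DHA5HT under LPS, and Cd14, Ly96, Myd88, Ticam1, Ticam2, Tirap, Unc93b1, Irak3, Sigirr, Tlr11 and Tlr12. Nrros, Cyld, Rnf216 and Inpp5d were added so that the negative regulators that fell are named too. Members and lists were chosen with earlier results of these data known. Alternatives were the replicate block, an intensity trend, array weights, a filter above the median gene, quantile normalization or centring on array medians, other ways to treat several probe sets of a gene, the compared arrays alone, a stricter threshold, and each array left out. The number of arrays limits the precision. Not measured among listed pathway genes were Ctsb, Irak1, Irak4, Traf3, Chuk, Ripk1 and Il1rl1. The plots come from matplotlib 3.10.9 in Python 3.11.15.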

Additional observations from a re-analysis of the deposited data

Results flagged for a closer look

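In 2 of the 40 sets of 4 arrays (10 receptors in 4 groups) an array lay far from the others, and chance alone flags about 1 in 20 such sets. Tlr3 stood at 8.22 in LPS array 4, with the other LPS arrays between 7.96 and 8.00. Without that array the LPS difference of Tlr3 was 0.10 (limma adjusted p = 0.612). Tlr7 stood at 8.53 in LPS+DHA5HT array 1, the array whose title and treatment label differ, with the other arrays of its group between 8.70 and 8.73. Without it the difference of Tlr7 between LPS+DHA5HT and LPS was 0.22 (limma adjusted p = 0.353).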

How the results depend on the processing

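Over the 10 receptors, 5 comparisons and all alternatives and left-out arrays, 993 results kept their side of the threshold, 12 lost a call, all of Tlr4, and 5 gained one. Called in LPS+DHA5HT against LPS were 0 receptors, and 2 with the replicate block, 1 (Tlr5, limma adjusted p = 0.04996) among genes above the median gene, and 0 to 1 when arrays were left out in turn (Tlr5 without LPS+DHA5HT array 2, limma adjusted p = 0.0497). With only the 8 arrays of that comparison in the fit, an alternative chosen after seeing the data, the replicate block gave Tlr5 an adjusted p of 0.0640 and Tlr13 of 0.102. For the difference between the DHA5HT effects the replicate block called 1 receptor lower, Tlr1 (−0.39, adjusted p = 0.0460), and 19 of the 24 same-numbered pairs of arrays correlated above 0.1. The block changed no other call of a receptor. At an adjusted p under 0.01 only the Tlr4 calls were lost. Over all genes, LPS+DHA5HT against LPS called 154 higher and 183 lower, against 323 and 324 with the replicate block, 30 and 102 with it on the compared arrays alone, 13 and 73 on those arrays without it, 288 higher after the filter, 20 and 61 at 0.01, 51 to 96 higher without any 1 of the LPS arrays or of LPS+DHA5HT arrays 1, 2 and 4, and 92 to 114 lower when 1 of LPS+DHA5HT arrays 1 and 4 and LPS arrays 2 and 4 was dropped. DHA5HT against control called 23 higher, against 56 with the replicate block, 37 after the filter, 9 and 10 on the compared arrays without and with the block, and 13 at 0.01. The difference between the effects called 31 in each direction, against 49 and 47 with the block, 51 higher with an intensity trend, 16 and 12 at 0.01, 18 to 20 higher without LPS array 1 or DHA5HT array 1 or 3, and 13 to 20 lower without LPS+DHA5HT array 4, LPS array 1 or 2, DHA5HT array 1, or control array 1 or 2. For LPS+DHA5HT against DHA5HT and LPS against control no alternative moved the count over all genes by over 1.5 times.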
